A study of Mus musculus with 47 samples.

Results

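The genes described here are 40 genes of the cell division cycle, chosen by symbol as commonly used S phase and mitosis genes, out of 22474 genes in the deposited table of mouse kidney RNA. All 40 were found, and all 40 passed the filter on low counts that left 18786 genes for testing. The study measured polyadenylated RNA in 47 kidney libraries, which the labels call metanephros and the series title calls kidney. The mice were wild type and untreated, female (F) or male (M), and belonged to C57BL/6J, to CAST/EiJ or to NZO/HlLtJ, all inbred. They ate either a diet labelled 10% fat with fiber or one labelled 44% fat with fiber from 6 weeks of age, and tissue was taken at 15 weeks. The series text calls the diets control and high fat, high sugar, and its title places the strains as models of susceptibility and resistance to type 2 diabetes. This makes 12 groups with 4 libraries apiece, save for CAST/EiJ M on 10% fat, which had 3. Whether libraries came from separate animals is not in the labels, so every p-value measures only the spread between these samples.

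Dividing cells switch these genes on in order. E2F transcription factors and cyclin E open the way into S phase, MCM helicases, PCNA and nucleotide enzymes copy the DNA, and later a programme driven by FOXM1 and MYB-containing complexes supplies the cyclins, kinases, motors and checkpoint proteins of mitosis. In the adult kidney most tubule cells rest, and these transcripts are known as markers of the few cells that divide, which become more frequent after tubule injury. Because whole tissue was measured, fewer cells of a type and less RNA per cell cannot be told apart.

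Depth was 34394546 to 58433712 counts over the libraries, at a median of 44759432, of which mitochondrial genes took 10.7% to 15.5%. All 24 F libraries had at least 863 CPM (counts per 1000000) of Xist, and no M library, of 23, had more than 2.43 CPM. Kidney markers were high in all libraries: Lrp2 of the proximal tubule was never under 4473 CPM and Umod of the thick ascending limb never under 1403 CPM. Sample identifiers form 3 runs of numbers, called 77, 81 and 89 here, of unstated meaning. In runs 81 and 89 the NZO/HlLtJ F and M libraries were on opposite diets, so a diet effect averaged over both sexes of that strain could be estimated within run 77 alone.

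The members were low in this tissue. Pcna, the sliding clamp that holds DNA polymerase on its template, had the highest mean, 29.1 CPM, followed by the replicative helicase subunits Mcm6 at 22.5 CPM and Mcm7 at 16.6 CPM, and by Tyms, which makes thymidylate, at 14.3 CPM. Ccne1, the cyclin that drives entry into S phase, was lowest at 0.311 CPM. No member was at 0 in any library. Per kilobase of exon, mean levels ran from 0.117 CPM in Ccne1 to 12.1 CPM in Pcna, which stood at the 82.3 percentile of tested genes. Of the members that act in G2 and mitosis, the level per kilobase was highest for Mki67 at 1.09 CPM per kilobase, and lowest for the kinetochore kinase Bub1 at 0.125 CPM per kilobase.

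Promoter letters were described for the S phase and the mitosis members. Promoter windows from RefSeq (GRCm38.p6, 250 bases before to 50 after the start) were found for 33 of the 40 members. The cell cycle homology region or CHR (TTTGAA or TTCGAA on either strand), which MYB and DREAM complexes recognise, was present in 16 of 21 mitosis members (76.2%), in 3 of 12 S phase members (25%) and in 21.7% of windows of all 27025 genes. CCAAT boxes on either strand, the motif of NF-Y, were in 18 of the 21 mitosis members (85.7%), in 8 of the 12 S phase members (66.7%) and in 41.1% of all. One of the E2F octamers TTTGGCGC, TTTCCCGC, TTTGCCGC and TTTCGCGC, on either strand, was in 1 of the 21 mitosis members (4.76%), in 5 of the 12 S phase members (41.7%) and in 2.6% of all. CHR and CCAAT occurred together in 16 of the 21 mitosis members and in 9.65% of all windows. Motif matches on both strands may overlap each other, and a match is a description of letters, not of binding.

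Upstream stretches of 4 members are shown because they hold the 2 arrangements, with matches to the 3 motifs in capitals (ATTGG is CCAAT and TTCAAA is TTTGAA on the other strand). Mki67, whose protein coats mitotic chromosomes, has 2 CHR and 3 CCAAT matches at chr7:135716380-135716629, minus strand. Kif11, the motor that pushes spindle poles apart, has 1 of each at chr19:37376132-37376381, plus strand. Cdk1, the kinase that starts mitosis, holds all 3 motifs at chr10:69352939-69353162, minus strand. Mcm5, a helicase subunit loaded at replication origins, has overlapping E2F matches and CCAAT but no CHR at chr8:75109259-75109508, plus strand. No motif was found in the windows of Birc5 and Tyms, both described below.
Mki67: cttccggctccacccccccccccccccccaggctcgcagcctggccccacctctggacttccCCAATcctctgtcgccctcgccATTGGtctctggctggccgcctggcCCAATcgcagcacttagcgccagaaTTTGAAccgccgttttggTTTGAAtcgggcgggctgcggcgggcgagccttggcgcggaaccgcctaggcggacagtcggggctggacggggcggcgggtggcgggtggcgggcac
Kif11: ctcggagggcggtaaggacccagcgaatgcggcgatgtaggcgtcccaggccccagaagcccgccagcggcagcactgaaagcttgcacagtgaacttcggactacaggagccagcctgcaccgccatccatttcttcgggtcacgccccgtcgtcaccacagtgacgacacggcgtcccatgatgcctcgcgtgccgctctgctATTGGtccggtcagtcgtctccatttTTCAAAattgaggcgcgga
Cdk1: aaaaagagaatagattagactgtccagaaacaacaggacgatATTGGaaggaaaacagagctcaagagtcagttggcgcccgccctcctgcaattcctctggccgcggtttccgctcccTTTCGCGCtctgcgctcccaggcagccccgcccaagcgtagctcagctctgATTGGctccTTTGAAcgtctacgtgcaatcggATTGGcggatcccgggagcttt
Mcm5: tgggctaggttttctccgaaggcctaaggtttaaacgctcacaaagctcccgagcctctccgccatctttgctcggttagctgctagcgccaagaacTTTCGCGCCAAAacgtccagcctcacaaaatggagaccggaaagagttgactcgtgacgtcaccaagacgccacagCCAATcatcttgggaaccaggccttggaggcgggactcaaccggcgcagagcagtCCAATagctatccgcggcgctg

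The level of the whole set was described per library as a mean z-score: the log2 CPM of each gene was centred and scaled over the 47 libraries and the 40 values were averaged. In NZO/HlLtJ on 44% fat the F libraries had mean z-scores of 0.627, 1.78, 0.646 and 1.04, and the M libraries 1.85, -0.708, 0.418 and 0.615. On 10% fat the same strain lay between -0.0998 and 0.405 in F and between -0.329 and 0.483 in M. All 4 F libraries on 44% fat were thus above all 4 on 10% fat, while M libraries on 44% fat held both the highest score of the series and a score below every other NZO/HlLtJ library. In CAST/EiJ the groups on 44% fat averaged 0.0733 ± 0.469 (SD, n = 4) in F and 0.0853 ± 0.995 (SD, n = 4) in M, against -0.607 ± 0.0453 (SD, n = 4) and -0.455 ± 0.458 (SD, n = 3) on 10% fat. In C57BL/6J the F groups averaged 0.289 ± 0.403 (SD, n = 4) on 44% and -0.229 ± 0.259 (SD, n = 4) on 10% fat, and the M groups -0.478 ± 0.224 and -0.399 ± 0.414 (SD, n = 4 each). The spread between CAST/EiJ M libraries on 44% fat, from -0.929 to 1.19, was wider than the distance between the diets.

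**Figure D1:**
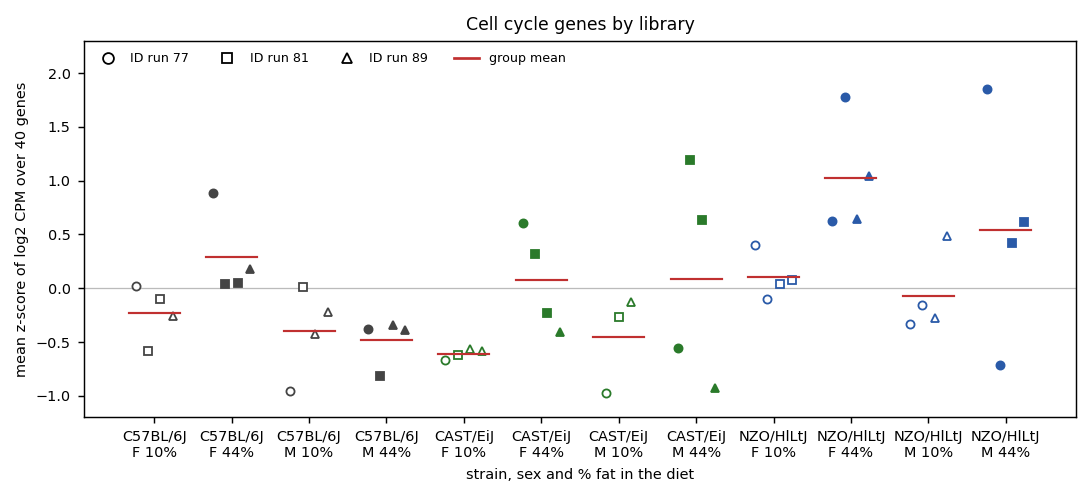
Mean z-score of log2 CPM over the 40 cell cycle genes in each of the 47 libraries, by strain, sex and percent fat in the diet (filled symbols 44% fat, open symbols 10% fat, shape the ID run, red line the group mean). NZO/HlLtJ libraries on 44% fat reach 1.85 and 1.78, and 1 of them lies at -0.708.

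Members varied together from library to library. After the means of group and ID run were removed, the median Pearson correlation over the 47 libraries was 0.524 across all 780 pairs of members, of which 93.1% were positive. Among the 26 mitosis members the median was 0.689 and every one of the 325 pairs was positive. Among the 14 S phase members it was 0.255, with 75.8% of 91 pairs positive. The pair with the highest value was Mki67 and Top2a, the topoisomerase that untangles replicated DNA, at 0.942. Mki67 followed the mean of the other 39 members most closely, at 0.936, then Top2a at 0.928 and the midzone bundling protein Prc1 at 0.914. At the other end stood Mcm6 at 0.00413, the cyclin Ccne2 at 0.0999, Mcm4 at 0.143 and the helicase cofactor Cdc45 at 0.16. These libraries share their normalization, and the correlations are descriptions without a test. Since members varied together, the counts of members above 0 given below are not counts of independent values.

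In NZO/HlLtJ, 7 of the 40 members rose on 44% fat and none fell, where 3.62% of all genes were called, or 1.98% counted as rises alone. They span the cycle: the replication genes Mcm5 and Pcna, the thymidylate synthase gene Tyms, the chromosomal passenger genes Birc5 and Aurkb, the mitotic cyclin gene Ccnb1 and the spindle motor gene Kif11. The increases were small for the replication genes, with log2 fold changes of 0.19 to 0.45, and larger for the mitosis genes, with 0.71 to 0.90. Of the 40 log2 fold changes 38 were above 0, with a median of 0.45, while the median over all tested genes was -0.0016, and 31 members had an unadjusted p under 0.05, against 17.4% of all genes. The members varied together, so these values are not independent. The exceptions in sign were Mcm6 at -0.14 and the kinetochore motor Cenpe at -0.01, neither of them called.

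Mcm5 (ENSMUSG00000005410, GRCm38 chromosome 8, 75109528 to 75128439) measured 5.97, 8.78, 7.41 and 6.67 CPM in NZO/HlLtJ F on 44% fat and 6.17, 4.25, 4.48 and 4.68 CPM in F on 10% fat. In M it measured 6.13, 4.93, 5.35 and 6.95 CPM on 44% and 4.07, 3.72, 5.03 and 5.65 CPM on 10% fat. The diets overlapped by 1 library on 10% fat in F and by neighbouring values in M. The log2 ratio of 44% to 10% fat (the log2 fold change) was 0.45 (SE 0.10, adjusted p 0.00888), and it was called in 16 of 16 fits that left out 1 library of the strain. Pcna (chromosome 2, 132249162 to 132253314) measured 29.3, 36.4, 31.3 and 30.98 CPM on 44% against 28.8, 26.5, 28.4 and 27.7 CPM on 10% fat in F. In M it measured 39.0, 28.5, 29.9 and 31.4 CPM against 30.8, 29.0, 26.6 and 28.0 CPM. The F groups did not overlap and the M groups did, and the log2 fold change was 0.19 (SE 0.05, adjusted p 0.0248). Tyms (chromosome 5, 30058202 to 30073617) showed the reverse: in M all libraries on 44% fat, at 17.0, 13.9, 13.1 and 15.3 CPM, lay above those on 10% fat, at 12.3, 11.1, 10.6 and 12.9 CPM. In F they overlapped, with 14.9, 16.5, 14.7 and 16.1 CPM on 44% and 14.9, 13.3, 15.2 and 15.1 CPM on 10% fat. Tyms had a log2 ratio of 0.21 (SE 0.06, adjusted p 0.0297).

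Birc5 (chromosome 11, 117849251 to 117855743), which encodes survivin, measured 1.35, 1.86, 1.42 and 1.82 CPM in NZO/HlLtJ F on 44% fat and 0.872, 0.501, 0.790 and 0.532 CPM on 10% fat. In M it measured 2.73, 0.460, 1.27 and 1.06 CPM on 44% and 0.898, 0.870, 0.980 and 1.12 CPM on 10% fat. The F groups were apart, and in M the group on 44% fat held both the highest and the lowest library. The log2 fold change was 0.90 (SE 0.23, adjusted p 0.0173). Aurkb (chromosome 11, 69045647 to 69051664), the kinase of the same complex, measured 1.12, 2.37, 0.664 and 1.32 CPM on 44% and 0.983, 0.641, 0.434 and 0.655 CPM on 10% fat in F. In M it measured 1.92, 0.639, 1.196 and 1.33 CPM against 0.760, 0.635, 0.797 and 0.774 CPM, and the log2 fold change was 0.89 (SE 0.25, adjusted p 0.0333). In each sex 3 of 4 libraries on 44% fat lay above all on 10% fat. Ccnb1 (chromosome 13, 100778650 to 100786570) measured 1.61, 2.83, 1.93 and 2.64 CPM on 44% and 1.36, 1.203, 1.26 and 1.37 CPM on 10% fat in F. In M it measured 4.504, 0.792, 2.13 and 1.60 CPM against 1.36, 0.941, 0.820 and 1.61 CPM, with a log2 ratio of 0.86 (SE 0.24, adjusted p 0.0384). Kif11 (chromosome 19, 37376403 to 37421859) measured 2.59, 3.96, 2.52 and 3.32 CPM on 44% and 1.81, 1.74, 1.82 and 1.88 CPM on 10% fat in F. In M it measured 5.23, 1.53, 2.31 and 3.19 CPM against 2.09, 1.69, 1.85 and 2.15 CPM, with a log2 ratio of 0.71 (SE 0.20, adjusted p 0.0331). For Ccnb1 and Kif11, as for Birc5, the F groups did not overlap and 1 M library on 44% fat was the lowest of the strain.

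**Figure D2:**
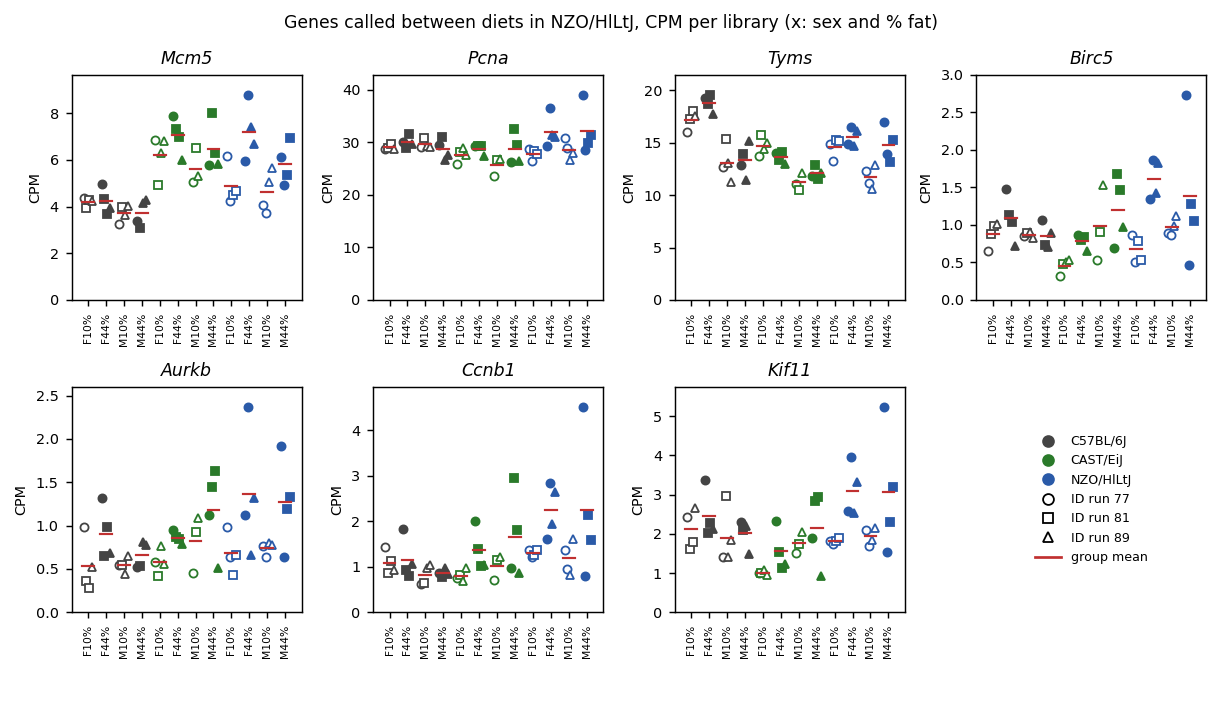
CPM per library of the 7 members called between the diets in NZO/HlLtJ, by strain (colour), sex and percent fat (filled symbols 44% fat, open symbols 10% fat, shape the ID run, red line the group mean, axes from 0). In F of NZO/HlLtJ the filled symbols of Birc5, Ccnb1, Kif11 and Pcna lie above the open ones, and in M 1 library stands high and 1 low for Birc5, Ccnb1 and Kif11.

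Of the 33 members that did not pass the test, 31 had values above 0. Hmmr, a spindle assembly factor, had the highest log2 fold change of the 40, 1.04 (SE 0.32, adjusted p 0.0636), Mki67 0.85 (SE 0.27, adjusted p 0.0760) and Top2a 0.83 (SE 0.26, adjusted p 0.0647). Mki67 measured 16.6, 28.2, 14.8 and 22.0 CPM on 44% and 11.2, 10.8, 11.1 and 11.5 CPM on 10% fat in F of NZO/HlLtJ. In M it measured 34.1, 6.21, 14.7 and 15.99 CPM on 44% and 5.18, 11.3, 9.54 and 13.9 CPM on 10% fat. By role, 2 of 2 chromosomal passengers, 1 of 2 nucleotide genes, 2 of 9 licensing and fork genes, 1 of 8 G2 and M cyclins, kinases and their transcription factor, 1 of 8 spindle and cytokinesis genes, 0 of 6 kinetochore, checkpoint and anaphase promoting complex genes, 0 of 3 genes of G1 to S entry, and neither Mki67 nor Top2a were called. Median log2 fold changes were 0.65 for the spindle genes, 0.65 for the kinetochore group and 0.64 for the cyclins and kinases, and 0.19 for licensing and fork.

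These calls rested on few libraries. Leaving out replicate 1 of the M libraries on 44% fat left 1 of 40 members called, Mcm5 alone, leaving out replicate 2 of the F libraries on 44% fat left 2, and leaving out both, an alternative chosen after the values were seen, left 0, with 34 of 40 still above 0 and a median of 0.22. Without replicate 2 of the M libraries on 44% fat, the low one, 15 members were called. Counts over all genes are not given here for fits on fewer libraries, so these shifts may not be particular to the members. Within ID run 77 alone 37 of 40 differences were above 0 with 0 called, and a fit with only the NZO/HlLtJ libraries called 0 as well, with a median of 0.44. Limma-voom called 4 and DESeq2 14, where over all genes they called 710 and 985, against 680 by edgeR. Of the 16 fits that left out 1 library, Birc5 was called in 15, Pcna in 13, Tyms in 9, Aurkb in 7, and Ccnb1 and Kif11 in 6 each.

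The 2 high libraries differed in markers of other cells. Replicate 2 of F on 44% fat had 109.5 CPM summed over 8 B and plasma cell markers, where the other 15 NZO/HlLtJ libraries had 2.73 to 10.8 CPM, 15.1 CPM over 7 T cell markers against 1.33 to 3.68 CPM, and 190.9 CPM over 11 macrophage markers against 83.4 to 117 CPM. Replicate 1 of M on 44% fat had 8.77, 2.18 and 85.2 CPM for the same lists, inside the range of the others. Across the strain none of the 7 T cell, 7 B and plasma cell, 11 macrophage and 4 neutrophil markers tested was called between the diets, with 6, 7, 9 and 4 of them above 0. Of 13 markers of injured tubule 11 were above 0 and 1, the secreted phosphoprotein gene Spp1, rose, by a log2 ratio of 0.40 (SE 0.09, adjusted p 0.0111). The part of these cells in the members' change was not tested.

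Taken by sex, as plain CPM without the run term, every F library on 44% fat lay above every F library on 10% fat for 15 of 40 members in NZO/HlLtJ, against 4.09% of all genes. In M of that strain this held for 2 members, Ccne2 and Tyms, against 3.24% of all genes. In CAST/EiJ it held for 7 members in F, against 1.63%, and for 1 in M, against 5.21%. In C57BL/6J it held for 2 in F, against 2.14%, and for 0 in M, against 1.9%. No member lay wholly lower on 44% fat in any of the 6 pairs of groups. Outside run 77, NZO/HlLtJ F libraries were in run 89 on 44% fat and in run 81 on 10% fat, and M libraries the reverse. In those libraries diet and run cannot be told apart within a sex. The F minus M difference of the diet effect was called for 0 of 40 members in each strain, where 0% of all genes were called in C57BL/6J, 0.0479% in CAST/EiJ and 0.00532% in NZO/HlLtJ. At an unadjusted p under 0.05 there were 2, 0 and 4 members in the same order. For NZO/HlLtJ outside run 77, this difference coincides with that between runs 89 and 81, for which only the run term adjusts. The 0 calls there thus do not show that F and M responded alike.

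In CAST/EiJ 0 of 40 members were called between the diets by edgeR, against 0.99% of all genes, and DESeq2 and limma-voom also called 0. Over all genes DESeq2 called 432 and limma-voom 177. Most values were above 0: 38 of 40 log2 fold changes were above 0, with a median of 0.37 against -0.0025 over all genes, and 14 had an unadjusted p under 0.05, where 13.6% of all genes did. As members varied together from library to library, these 40 signs are not independent. The member nearest to the threshold was Bub1, a kinase of the spindle checkpoint, with a log2 ratio of 1.03 (SE 0.32, adjusted p 0.108). Bub1 measured 1.02, 0.445, 0.324 and 0.318 CPM in F on 44% fat and 0.112, 0.138, 0.240 and 0.184 CPM in F on 10% fat, with no overlap. In M it measured 0.423, 0.804, 0.925 and 0.179 CPM on 44% and 0.275, 0.540 and 0.437 CPM on 10% fat, which overlapped. Next came the licensing factor Cdc6 at 0.67 (SE 0.24, adjusted p 0.176) and Ccnb1 at 0.74 (SE 0.27, adjusted p 0.192).

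The CAST/EiJ pattern differed between ID runs. Within runs 77 and 81, 38 of 40 differences were above 0, with medians of 0.446 and 0.557, and within run 89 only 9 were, with a median of -0.143. Without replicate 4 of the M libraries on 44% fat, which belongs to run 89, 1 member was called. Of 13 injured tubule markers 3 rose in this strain, Clu by a log2 ratio of 1.19 (SE 0.17, adjusted p 0.000119), Havcr1, the kidney injury molecule, by 2.02 (SE 0.35, adjusted p 0.00286) and Tnfrsf12a by 0.67 (SE 0.16, adjusted p 0.0276). All 11 macrophage markers were above 0 with none called. Their summed level was 158.8 to 194.2 CPM on 44% and 139.8 to 150.2 CPM on 10% fat in F, and 184.4 to 202.3 against 152.0 to 173.6 CPM in M. B and plasma cell markers summed to 12.1 to 23.7 CPM on 44% and 3.93 to 8.72 CPM on 10% fat in F. In M they summed to 11.6 to 37.0 CPM on 44% and 6.69 to 9.02 CPM on 10% fat. Sums of T cell markers overlapped between the diets in F but not in M, and sums of neutrophil markers overlapped in both. The part of all these cells in the members' values was not tested.

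In C57BL/6J no member was called, against 0.0266% of all genes, or 5 genes. There were 35 of 40 log2 fold changes above 0, with a median of 0.12, and 0 members had an unadjusted p under 0.05. The smallest adjusted p was 0.860, for Aurkb at 0.52 (SE 0.26). Within runs 77, 81 and 89, 38, 8 and 30 members were above 0. DESeq2 and limma-voom also called 0 members, and 15 and 5 over all genes.

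The strains' diet effects were not shown to differ for any member. The difference between NZO/HlLtJ and C57BL/6J was called for 0 of 40, against 0.0373% of all genes, that between CAST/EiJ and C57BL/6J for 0, against 0.0532%, and that between NZO/HlLtJ and CAST/EiJ for 0, against 1.28%. At an unadjusted p under 0.05 there were 5, 1 and 1 members. The smallest adjusted p-values were 0.446, 0.508 and 0.187. DESeq2 and limma-voom called 0 members in each. Over all genes, in the same order of differences, DESeq2 called 22, 35 and 506 and limma-voom 8, 8 and 248.

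**Figure D3:**
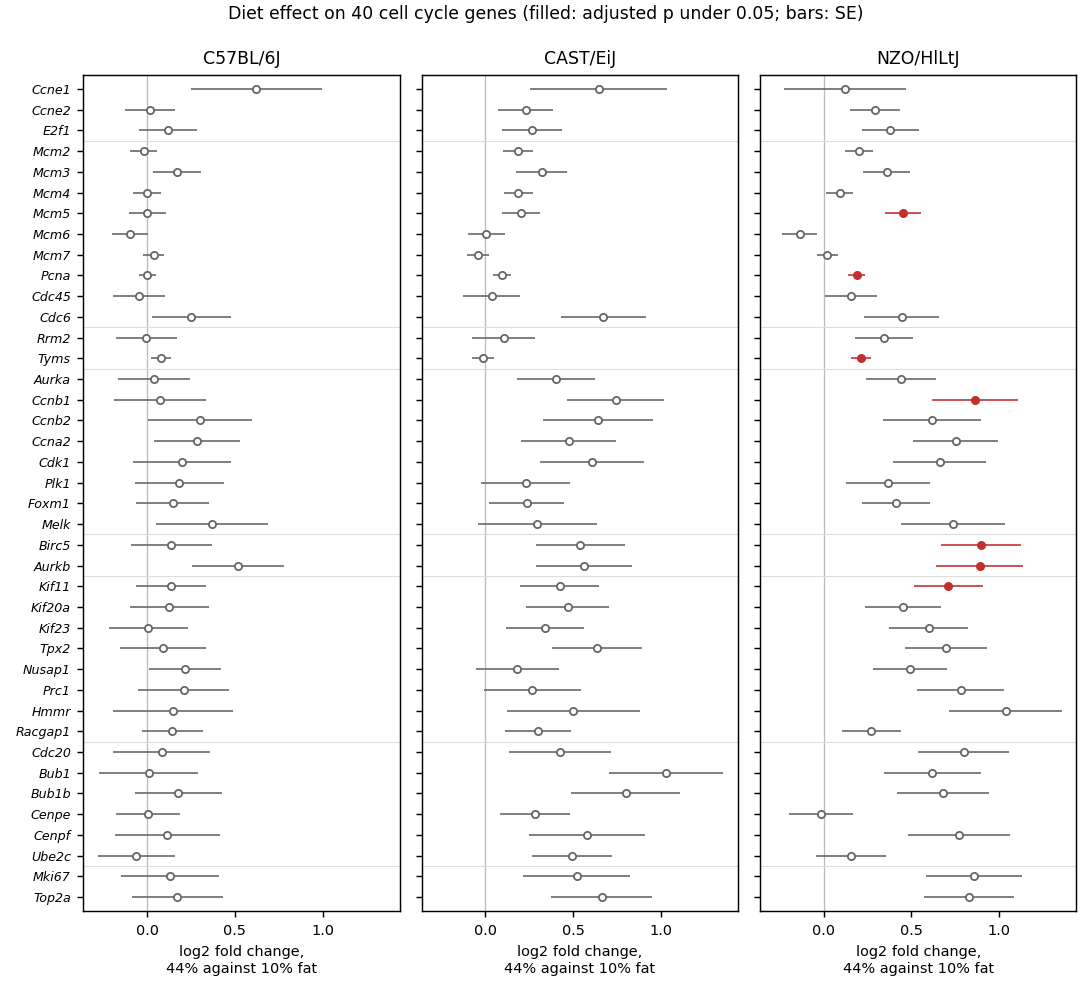
Log2 fold change between 44% and 10% fat for each of the 40 members in the 3 strains, with SE as bars, ordered by role (lines separate roles, filled red symbols adjusted p under 0.05). Filled symbols occur for 7 members in NZO/HlLtJ, and 38, 38 and 35 of 40 symbols lie above 0 in NZO/HlLtJ, CAST/EiJ and C57BL/6J.

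Other genes of the cycle, taken from lists that exclude the 40, were also counted between the diets in NZO/HlLtJ, where 1.98% of all genes rose, so that 1 or 2 calls in a list of 20 or 41 are near the background. They were measured in the same libraries as the members, including both highest ones, and their calls were not checked with libraries left out. These genes are thus no independent check of the members' values. Of 50 further mitosis genes 6 rose and none fell on 44% fat, 48 were above 0 and the median log2 fold change was 0.43. Among them were the kinetochore genes Spc25 at 0.48 (SE 0.09, adjusted p 0.00166) and Nuf2 at 1.03 (SE 0.28, adjusted p 0.0268), the spindle checkpoint gene Mad2l1 at 0.41 (SE 0.10, adjusted p 0.0168) and the condensin subunit Ncapd2 at 0.34 (SE 0.09, adjusted p 0.0176). Of 41 further S phase genes 2 rose, the chromatin remodeller Hells at 0.57 (SE 0.15, adjusted p 0.0208) and Dtl, an adaptor of a ubiquitin ligase active at replication forks, at 0.74 (SE 0.22, adjusted p 0.0494), with 36 above 0 and a median of 0.15. Of 19 cell cycle brakes and p53 targets 3 rose: Ccng1 at 0.42 (SE 0.08, adjusted p 0.00112), Tob1 at 0.25 (SE 0.07, adjusted p 0.0303) and Plk2 at 0.31 (SE 0.09, adjusted p 0.0485). Of 20 growth signals, D cyclins and E2F and MYB partners 1 rose, the repressor E2f7, by 0.85 (SE 0.24, adjusted p 0.0349). In CAST/EiJ 0 of the 50 mitosis genes were called, 47 were above 0 and the median was 0.40, while 1 S phase gene, the primase Prim1, fell by 0.31 on the log2 scale (SE 0.07, adjusted p 0.0254). In C57BL/6J none of these 4 lists had a called gene.

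Between F and M, members passed the test in both directions, and the share called was below the background. In C57BL/6J 8 of 40 were called (20%) against 47.9% of all genes, in CAST/EiJ 9 (22.5%) against 47.6%, and in NZO/HlLtJ 7 (17.5%) against 49.9%. The members are low genes, and among all tested genes at 1 to 3 CPM, where 22 members fall, 43.2%, 41.9% and 47.6% were called, against 3, 6 and 3 of the 22 members. Both directions occurred, with 6 higher and 2 lower in F of C57BL/6J, 5 and 4 in CAST/EiJ, and 5 and 2 in NZO/HlLtJ. Called members kept their sign in every ID run in which they could be estimated, which for NZO/HlLtJ was run 77 alone. Without replicate 1 of M on 44% fat 12 members were called in NZO/HlLtJ, and with the C57BL/6J libraries alone 15 were called in that strain, 13 higher and 2 lower. Counts over all genes in these fits are not given here.

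Ube2c (chromosome 2, 164769898 to 164778822), the ubiquitin carrier that works with the anaphase promoting complex, was higher in F in all 3 strains. In C57BL/6J the 8 F libraries measured 1.78 CPM at the lowest, 2.299 at the median and 3.11 at the highest, and the 8 M libraries 0.427, 0.803 and 1.204 CPM. In NZO/HlLtJ the same values were 4.41, 5.96 and 7.64 CPM in F and 0.613, 1.35 and 2.82 CPM in M. Neither pair overlapped, and the log2 fold changes were 1.43 (SE 0.22, adjusted p 8.87e-07) and 2.00 (SE 0.20, adjusted p 5.68e-11). In CAST/EiJ the F libraries, at 1.96, 2.64 and 2.97 CPM, overlapped the 7 M libraries, at 0.618, 0.897 and 2.67 CPM, with a log2 ratio of 1.05 (SE 0.22, adjusted p 0.000159). Exons of Tnnc2 overlap 22.8% of the exon length of Ube2c on the opposite strand, and whether counting used strand is not given in the sources used here. Tnnc2 was not found by symbol in the deposited table, so its own level could not be compared. Ube2c values are therefore uncertain by reads of that neighbour.

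Tyms and Mcm4 were also higher in F in each strain. The log2 fold changes of Tyms were 0.43, 0.28 and 0.19 in C57BL/6J, CAST/EiJ and NZO/HlLtJ, with adjusted p-values of 6.64e-08, 0.000220 and 0.00548. Mcm4, a helicase subunit, had 0.29, 0.35 and 0.35, with adjusted p-values of 0.00205, 0.000323 and 0.000169. Racgap1, which organises the contractile ring, was higher in F of C57BL/6J at 0.61 (SE 0.18, adjusted p 0.00399) and of NZO/HlLtJ at 0.44 (SE 0.17, adjusted p 0.0297), the latter lost in 6 of 16 fits that left out 1 library, and had 2.20 ± 0.693 CPM in F (SD, n = 8) and 2.08 ± 0.758 CPM in M (SD, n = 7) of CAST/EiJ. The cytokinesis motor Kif23, at 1.00 (SE 0.23, adjusted p 0.000362), and the ribonucleotide reductase subunit Rrm2, at 0.51 (SE 0.18, adjusted p 0.0161), were higher in F of C57BL/6J. Mcm3 rose in F of CAST/EiJ by 0.35 (SE 0.14, adjusted p 0.0439), a call that was lost with limma-voom and in 11 of 15 fits that left out 1 library, and Mcm6 in F of NZO/HlLtJ by 0.31 (SE 0.10, adjusted p 0.0102).

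Cenpe, the motor that aligns chromosomes, was lower in F in C57BL/6J, by a log2 ratio of -0.94 (SE 0.19, adjusted p 5.6e-05), and in NZO/HlLtJ, by -0.96 (SE 0.18, adjusted p 2.22e-05). In NZO/HlLtJ the 8 F libraries had a lowest, median and highest value of 1.80, 2.25 and 3.63 CPM and the 8 M libraries 2.38, 4.77 and 6.63 CPM, with overlap. Nusap1, a spindle microtubule protein, was lower in F of C57BL/6J at -0.85 (SE 0.21, adjusted p 0.000918). Its overlapping neighbour on the other strand, Oip5, chosen after its values were seen, was lower in F in the same strain at -0.92 (SE 0.27, adjusted p 0.00386). Oip5 was also lower in F of CAST/EiJ at -1.21 (SE 0.29, adjusted p 0.000674) and of NZO/HlLtJ at -0.85 (SE 0.27, adjusted p 0.00814), where Nusap1 had -0.41 (SE 0.23, adjusted p 0.150) and -0.21 (SE 0.21, adjusted p 0.437). Mcm7 was lower in F of NZO/HlLtJ at -0.29 (SE 0.06, adjusted p 4.75e-05). In CAST/EiJ the lower members were Birc5 at -0.85 (SE 0.25, adjusted p 0.00398), E2f1 at -0.57 (SE 0.17, adjusted p 0.00434), Kif11 at -0.63 (SE 0.22, adjusted p 0.0151) and Cdc45 at -0.45 (SE 0.16, adjusted p 0.0170). The same strain had a higher Ccne2 in F, at 0.77 (SE 0.15, adjusted p 6.11e-05). Ints8, which overlaps 17.4% of Ccne2 on the other strand and was chosen after its values were seen, was lower in F at -0.21 (SE 0.07, adjusted p 0.0132). The part of reads of Oip5 and Ints8 in the values of Nusap1 and Ccne2 was not tested.

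**Figure D4:**
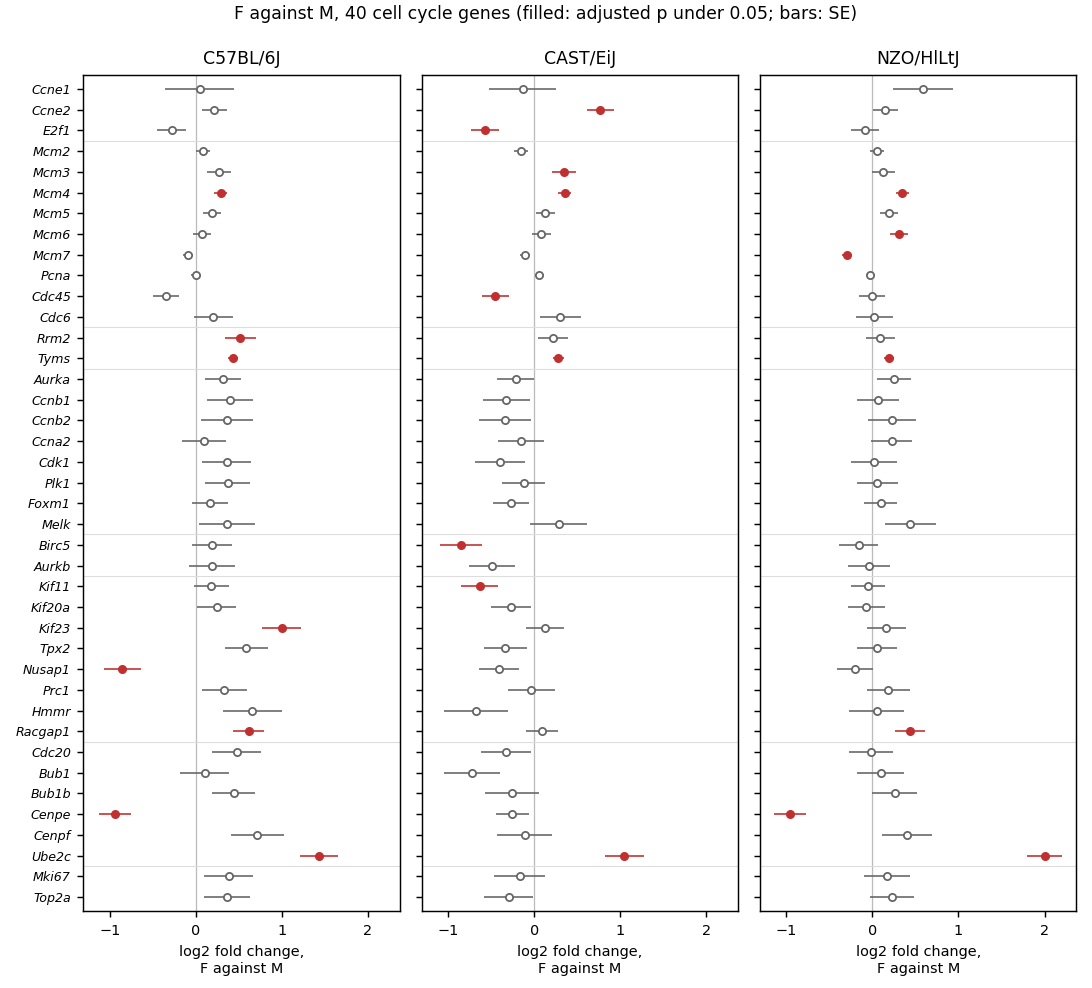
Log2 fold change of F against M for each of the 40 members in the 3 strains, with SE as bars, ordered by role (filled red symbols adjusted p under 0.05). Ube2c is the highest symbol in each strain, at 1.43, 1.05 and 2.00, and filled symbols lie on both sides of 0.

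Marker lists of other cells were counted between F and M as well. Against the 47.9%, 47.6% and 49.9% of all genes called in C57BL/6J, CAST/EiJ and NZO/HlLtJ, 8, 8 and 6 of 13 injured tubule markers were higher in F and 1, 2 and 2 lower, and in NZO/HlLtJ 2 of 7 T cell and 2 of 7 B and plasma cell markers were higher in F. The F libraries of NZO/HlLtJ include replicate 2 on 44% fat, with 109.5 CPM of B and plasma cell and 15.1 CPM of T cell markers. Median sums of B and plasma cell markers were 4.29 and 4.80 CPM in F on 10% and 44% fat, and 6.09 and 8.19 CPM in M. Those of T cell markers were 3.23 and 3.10 CPM in F, and 2.75 and 2.47 CPM in M. The part of all these cells in the members' differences between F and M was not tested. Of the 50 further mitosis genes 10, 6 and 8 were higher and 4, 5 and 4 lower in F, shares below the same background, including Spc25 at 1.09 (SE 0.09), 0.94 (SE 0.10) and 1.13 (SE 0.09) and Kif20b at -3.03 (SE 0.20), -2.67 (SE 0.19) and -1.42 (SE 0.19) in the same order of strains, with adjusted p-values of at most 6.05e-08. The difference of the F minus M effect between strains was tested after the values were seen. Between NZO/HlLtJ and C57BL/6J it was called for 0 of 40 members, against 4.95% of all genes, with 4 at an unadjusted p under 0.05. Between CAST/EiJ and C57BL/6J it was called for 1, Birc5, against 13.2%, and between NZO/HlLtJ and CAST/EiJ for 2, Ube2c and Ccne2, against 14.3%.

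Between strains on 10% fat, members again passed the test in both directions. CAST/EiJ against C57BL/6J gave 12 calls (30%), 5 higher and 7 lower, against 60% of all genes. NZO/HlLtJ against C57BL/6J gave 7 (17.5%), 5 higher and 2 lower, against 36.9%. NZO/HlLtJ against CAST/EiJ gave 13 (32.5%), 10 higher and 3 lower, against 59.1%. At 1 to 3 CPM, 62.3%, 39.3% and 61.6% of all genes were called in these comparisons, and 4, 3 and 7 of the 22 members.

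Bub1b (chromosome 2, 118598211 to 118641591), the checkpoint protein BUBR1, gave the largest difference of a member between strains. On 10% fat the 8 C57BL/6J libraries had a lowest, median and highest value of 1.07, 1.72 and 1.94 CPM. The 8 NZO/HlLtJ libraries had 0.299, 0.767 and 1.34 CPM, and the 7 CAST/EiJ libraries 0.275, 0.407 and 0.690 CPM. C57BL/6J did not overlap CAST/EiJ, and the log2 fold change of CAST/EiJ against it was -1.91 (SE 0.30, adjusted p 5.74e-07), with -0.95 (SE 0.26, adjusted p 0.00354) for NZO/HlLtJ. Its partner Bub1 fell by 1.06 on the log2 scale in CAST/EiJ against C57BL/6J (SE 0.32, adjusted p 0.00404). Nusap1 at -0.89, Kif11 at -0.59, Mcm2 at -0.46, Tyms at -0.22 and Pcna at -0.14 were also lower there, with adjusted p-values of 0.000931, 0.0180, 8.44e-06, 0.00227 and 0.0245.

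Kif23 (chromosome 9, 61917280 to 61946799) ran the other way, with CAST/EiJ highest. It had a lowest, median and highest value of 5.70, 8.13 and 10.3 CPM in CAST/EiJ on 10% fat, 2.05, 3.86 and 8.82 CPM in C57BL/6J and 1.54, 2.90 and 5.29 CPM in NZO/HlLtJ. The NZO/HlLtJ and CAST/EiJ libraries did not overlap, at a log2 ratio of -1.41 (SE 0.23, adjusted p 2.63e-06), and CAST/EiJ exceeded C57BL/6J by 0.94 (SE 0.23, adjusted p 0.000548). Also higher in CAST/EiJ than in C57BL/6J were Mcm5 at 0.58 (SE 0.11, adjusted p 1.83e-05), Rrm2 at 0.66 (SE 0.18, adjusted p 0.00167), the transcription factor E2f1 at 0.56 (SE 0.17, adjusted p 0.00480) and the kinase Plk1 at 0.80 (SE 0.26, adjusted p 0.00703). Plk1 shares 14.8% of its 31-base words with the pseudogene Plk-ps1, chosen after its values were seen. Plk-ps1 was higher in the same comparison at 1.51 (SE 0.19, adjusted p 6.42e-09). It was also higher in NZO/HlLtJ against C57BL/6J, where Plk1 was not called, at 0.84 (SE 0.19, adjusted p 0.000487). Reads of the 2 may be split, which was not tested.

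NZO/HlLtJ on 10% fat was higher than both other strains in Ube2c, at 1.08 (SE 0.21, adjusted p 8.58e-05) against C57BL/6J and 1.01 (SE 0.22, adjusted p 0.000183) against CAST/EiJ, and in Mcm6, at 0.33 (SE 0.10, adjusted p 0.0100) and 0.40 (SE 0.11, adjusted p 0.00147). These values average both sexes. Over both diets, F averaged 5.98 CPM of Ube2c in NZO/HlLtJ, 2.28 in C57BL/6J and 2.52 in CAST/EiJ. The M means were 1.47, 0.839 and 1.31 CPM in the same order. Against C57BL/6J on 10% fat the transcription factor Foxm1, at 0.74 (SE 0.21, adjusted p 0.00402), Rrm2, at 0.64 (SE 0.17, adjusted p 0.00328), and Mcm5, at 0.27 (SE 0.11, adjusted p 0.0443), were higher and Tyms lower, at -0.19 (SE 0.06, adjusted p 0.0101). The Mcm5 call was lost without the filter on low counts, with limma-voom and on the deposited log2 values, and in 9 of 16 fits that left out 1 library. Against CAST/EiJ 8 further members were higher, with log2 fold changes from 0.35 in Mcm2 to 0.96 in Bub1b, of which Top2a, Aurka and Hmmr were lost in 11, 6 and 6 of 15 fits that left out 1 library and with limma-voom, and E2f1 at -0.60 (SE 0.17, adjusted p 0.00273) and Mcm5 at -0.31 (SE 0.11, adjusted p 0.0150) were lower. The last count depended on 1 library: without replicate 1 of CAST/EiJ M on 10% fat 8 members were called in place of 13. These comparisons share strains, so their calls are not independent.

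**Figure D5:**
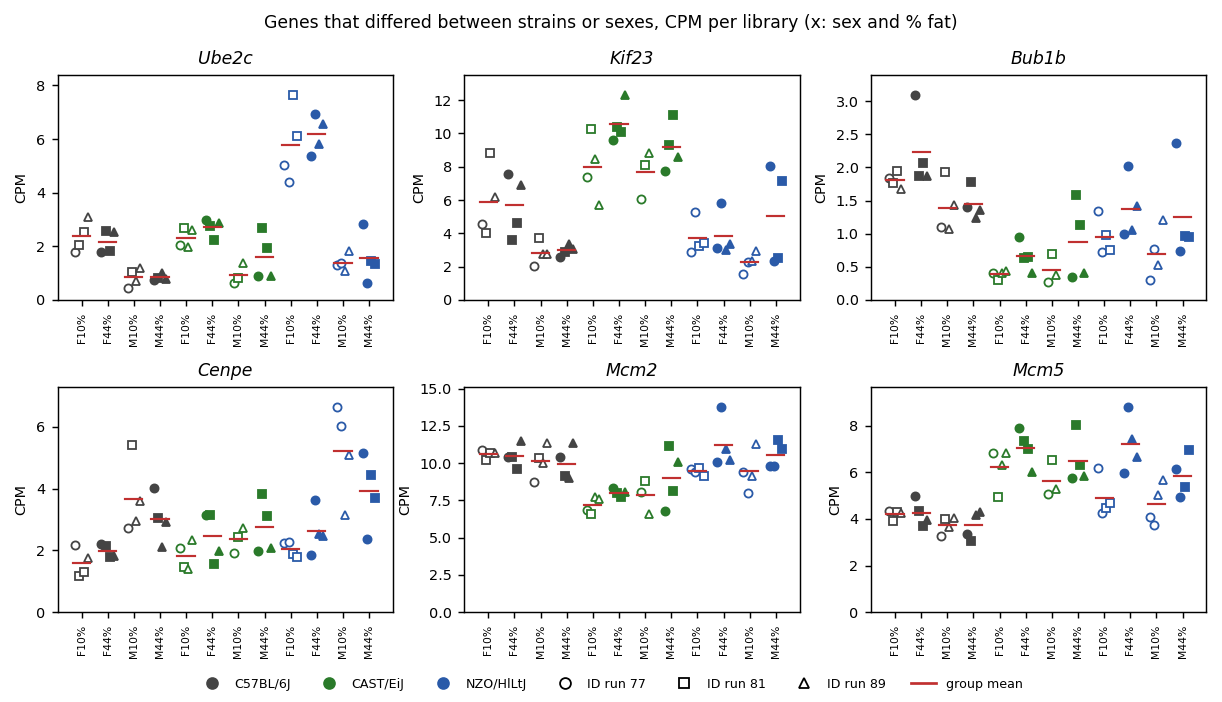
CPM per library of Ube2c, Kif23, Bub1b, Cenpe, Mcm2 and Mcm5 by strain (colour), sex and percent fat (filled symbols 44% fat, open symbols 10% fat, shape the ID run, red line the group mean, axes from 0). The 8 F libraries of NZO/HlLtJ have 4.41 CPM or more of Ube2c and no other library plotted does. By mean over a strain's libraries, Bub1b is highest in C57BL/6J and Kif23 in CAST/EiJ on either diet.

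Some members cannot be separated fully from neighbours or copies. Exons on the opposite strand overlap 29.3% of the exon length of Kif20a, 22.8% of Ube2c, 17.4% of Ccne2, 12.5% of Ccna2 and 11.1% of Prc1. Of 31-base words, Mcm7 shares 33.4% with other genes, Ccnb1 27.8%, Cdc20 26.7% and Pcna 23.3%, mainly with pseudogenes. Of the 7 members called between the diets in NZO/HlLtJ, Ccnb1, Pcna and, at 11.4%, Tyms are among those whose values such copies could change. Their main copies Ccnb1-ps and Tyms-ps were not found by symbol in the deposited table. Pcna-ps2 was found but did not pass the filter on low counts, so no copy of these members could be compared.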

How the data were processed

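Kidney RNA was sequenced as 100 bp read pairs aiming at 30000000 pairs in each library, per the labels' protocols. The authors deposited expected counts per gene, of which 21.2% were not whole, and variance-stabilized values on a log2 scale. GRCm38 and DESeq2 are named per the submitters' processing notes, while the aligner, the counter and the use of strand are not given in the sources used here. GRCm38 is C57BL/6J sequence, and its part in differences between strains was not tested.

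Counts were rounded. After edgeR's filter on low counts, which set aside 3688 of 22474 genes, edgeR 4.0.16 (R 4.3.3) quasi-likelihood tests with TMM scaling were fitted on all 47 libraries with 12 groups and the ID run as terms, leaving 33 residual degrees of freedom. P-values were adjusted by Benjamini-Hochberg over 18786 genes in each of 15 contrasts, called at 0.05, and 3 contrasts between sex effects of strains were added after the values were seen. CPM is counts per 1000000 with TMM scaling, and log2 CPM has a prior count of 1. All 40 members could be named in every comparison, with up to 4 genes of each other list by smallest adjusted p in a contrast, Xist and Ddx3y as a check of the labels, and Lrp2 and Umod outside that rule as defining kidney markers. The members and lists were chosen with earlier results of these data known. Alternatives were DESeq2 1.42.0, limma 3.58.1 (voom, and on deposited log2 values), other size factors, no filter, no run term, 1 strain's libraries and each library left out. The procedure was tested on simulated data.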

Additional observations from a re-analysis of the deposited data

Results flagged for a closer look

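The mean z-score and the 7 members called between the diets in NZO/HlLtJ were checked in groups of 4 libraries of every strain. In 3 of these groups 1 value stood apart from the other 3 by most of the group's range. The lowest mean z-score in C57BL/6J M on 44% fat was -0.8125, with the nearest at -0.3876. Pcna in C57BL/6J M on 10% fat had a highest value of 30.882 CPM, with the nearest at 29.351 CPM. In CAST/EiJ F on 44% fat the lowest Pcna value was 27.386 CPM, with the nearest at 29.229 CPM. Chance gives about 1 in 20 groups such a value. Over all members 20 of 440 groups (4.55%) had one, and among the groups of the mean z-score and those 7 members 3 of 88 did.

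For 3 members the difference between F and M itself differed between strains, in contrasts added after the values were seen. Birc5 was lower in F of CAST/EiJ relative to C57BL/6J, with a difference of log2 ratios of -1.04091 (SE 0.34, edgeR adjusted p 0.0347). Ube2c had a larger excess in F of NZO/HlLtJ than of CAST/EiJ, by 0.9527 (SE 0.30, edgeR adjusted p 0.0262). Ccne2 had a smaller excess in F of NZO/HlLtJ than of CAST/EiJ, with a difference of -0.619791 (SE 0.21, edgeR adjusted p 0.0396). Exons of other genes overlap Ube2c and Ccne2 on the opposite strand.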

How the results depend on the processing

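The count of members called between the diets in NZO/HlLtJ, 7, became 14 with the DESeq2 Wald test and 4 with limma-voom. Over all genes these 2 fits called 985 and 710, against 680 as reported. The count of members became 0 within ID run 77 alone, 0 without both highest NZO/HlLtJ libraries and 0 with only that strain's libraries. Leaving out 1 library at a time gave 1 to 15, the lowest without M 44% fat replicate 1 and the highest without M 44% fat replicate 2. For F against M in C57BL/6J, 8 calls became 15 with only that strain's libraries. Other counts with 1 library left out ran from 0 to 1 for the diet in CAST/EiJ, 8 to 11, 7 to 12 and 6 to 12 for F against M in C57BL/6J, CAST/EiJ and NZO/HlLtJ, 6 to 8 for NZO/HlLtJ against C57BL/6J, 10 to 14 for CAST/EiJ against C57BL/6J and 8 to 19 for NZO/HlLtJ against CAST/EiJ. They stayed at 0 for the diet in C57BL/6J and for the 6 differences of diet effects. Counts over all genes are not given here for fits on fewer libraries, and the cause of these shifts was not tested. Leaving out 1 library ended the F against M calls of Rrm2 in C57BL/6J (M 44% fat replicate 2) and, in CAST/EiJ, of Cdc45 (M 44% fat replicate 2), Birc5 and Kif11 (both M 10% fat replicate 3). Of values of single members under alternatives, 1678 kept their direction and side of the threshold, 138 lost the call, 6 gained one and none changed sign. No paired analysis was possible because the labels carry no replicate number that ties single libraries of different groups. The ID run was a term in the fit, and without it 7, 0 and 0 members were called between the diets in NZO/HlLtJ, CAST/EiJ and C57BL/6J. Low counts, down to 2 in a library for Ccne1, limit the precision of the least abundant members.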

Other observations

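Several cycle genes outside the 40 differed between F and M in all 3 strains. Of all genes, 47.9% were called between F and M in C57BL/6J, 47.6% in CAST/EiJ and 49.9% in NZO/HlLtJ. Such differences are thus not particular to cycle genes. Ect2, which acts in cytokinesis, was higher in F by log2 ratios of 0.90 (SE 0.10), 0.80 (SE 0.10) and 1.16 (SE 0.10) in C57BL/6J, CAST/EiJ and NZO/HlLtJ. The replication initiation gene Mcm10 was lower in F, at -0.84 (SE 0.15), -1.40 (SE 0.20) and -1.45 (SE 0.15) in the same order. The largest adjusted p of these by edgeR was 1.65e-05, for Mcm10 in C57BL/6J.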
